A study of Mus musculus with 4 samples.

Results

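The adhesion switch genes are a group of 9 genes that mark the passage of a cell from epithelial to neural or mesenchymal adhesion: Cdh1, Epcam, Cdh2, Ncam1, Vim, Zeb1, Zeb2, Snai1 and Snai2. They were chosen by name from 21887 protein-coding genes on the assembled mouse chromosomes. For each gene the accessible regions (peaks) of 4 libraries were taken from the gene body plus 50 kb on each side. These windows held 240 peaks in the KO at day 5, 245 in the KO at day 0, 237 in WT at day 5 and 220 in WT at day 0.

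The libraries were made from nuclei of mouse embryonic stem cells derived from blastocysts, with an ATAC-seq assay of single nuclei, where transposase cuts mark open chromatin. The KO cells carry a knockout that the labels call Cdc14ab KO, of the phosphatases Cdc14a and Cdc14b, which counter cyclin-dependent kinases, and the WT cells are wild type. Day 0 cells of both genotypes were in LIF medium, which keeps them pluripotent, and day 5 cells had spent 5 days in N2B27 medium with EGF and FGF2, a neural differentiation medium. Each group was 1 library, KO at day 5, KO at day 0, WT at day 5 and WT at day 0, so no value has a replicate check and no test over samples was possible. Every library carries the label clone 3, and it is not clear if WT and KO share a derivation, so a difference between lines and an effect of the knockout cannot be told apart. All cultures had been kept on feeder cells, then plated thinly on gelatin to remove these, and were cleared of dead cells before nuclei were isolated.

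Epithelial cells and pluripotent stem cells hold together through E-cadherin, a calcium-dependent adhesion protein tied to actin by catenins. When the neural plate forms, E-cadherin gives way to N-cadherin, and the same exchange accompanies the epithelial to mesenchymal transition. The Snail and Zeb proteins are zinc-finger repressors that bind E-box sequences in the promoters of epithelial genes, and the microRNAs of the miR-200 family hold back Zeb1 and Zeb2.

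The E-box bound by Snail and Zeb proteins reads CAGGTG on one strand and CACCTG on the other, and it was searched on both strands in promoters of 300 bases, from 250 before to 50 after the start. RefSeq promoters (GRCm38.p6, the assembly behind mm10) were matched for 4 of the 9 genes, namely Epcam, Vim, Zeb2 and Snai1. Epcam is shown because it is an epithelial gene with this E-box near its start, and Snai1 because it is a repressor that carries the sequence itself. Both promoters lie on the plus strand, Epcam at chr17:87635729-87636028 and Snai1 at chr2:167537945-167538244, and capitals mark the E-box.
Epcam: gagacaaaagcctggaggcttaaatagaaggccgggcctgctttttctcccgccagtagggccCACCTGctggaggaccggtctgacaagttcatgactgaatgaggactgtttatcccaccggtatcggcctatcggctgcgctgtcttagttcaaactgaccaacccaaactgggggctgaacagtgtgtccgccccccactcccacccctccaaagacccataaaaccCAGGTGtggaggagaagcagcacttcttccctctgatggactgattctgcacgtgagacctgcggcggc
Snai1: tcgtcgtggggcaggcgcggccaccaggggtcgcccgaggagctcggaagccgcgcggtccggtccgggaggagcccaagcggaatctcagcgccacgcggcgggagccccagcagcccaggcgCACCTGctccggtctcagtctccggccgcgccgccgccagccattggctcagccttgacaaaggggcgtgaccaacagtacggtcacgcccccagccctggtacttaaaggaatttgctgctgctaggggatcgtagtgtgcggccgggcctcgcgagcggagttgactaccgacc
The Epcam promoter held 2 copies, 187 and 19 bases before the start, and the Snai1 promoter held 1 copy, 126 bases before it. No copy was found in the matched window of Vim, nor in those of the annotated starts of Zeb2. Of all 32851 RefSeq promoters in the table, 6640 (20.2%) held at least 1 copy and 946 (2.88%) held 2 or more. All bases of the 3 copies lay inside a peak in all 4 libraries.

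The mature miR-200 sequences are shown because the family is a regulator of Zeb1 and Zeb2, with the seed (bases 2 to 8), which pairs with target RNAs, in capitals.
mmu-miR-200a-3p: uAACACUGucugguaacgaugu
mmu-miR-141-3p: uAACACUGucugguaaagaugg
mmu-miR-200b-3p: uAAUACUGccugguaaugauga
mmu-miR-200c-3p: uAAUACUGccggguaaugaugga
mmu-miR-429-3p: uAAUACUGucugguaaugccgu
The seed AACACUG was shared by miR-200a and miR-141, and the seed AAUACUG by miR-200b, miR-200c and miR-429. The genes lie in 2 groups, with Mir200a, Mir200b and Mir429 on chromosome 4 and Mir200c and Mir141 on chromosome 6.

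The lists held 227878 peaks in the KO at day 5, 222257 in the KO at day 0, 189571 in WT at day 5 and 198860 in WT at day 0, and covered between 162.5 and 197.3 Mb. Median peak widths were 873 to 882 bp, and peaks carry no height, so covered bp count how much of a locus was listed as open and not how strongly. Read depth is unknown, and a smaller covered length can come from fewer reads, fewer nuclei with an open site or less accessibility per nucleus, which cannot be told apart in these pooled lists. The WT day 5 library stood apart in listing peaks at the Y-linked genes Eif2s3y (915 bp), Uty (888 bp) and Ddx3y (792 bp), each with 0 bp in the other 3 libraries. The Y-linked gene Kdm5d had 0 bp in every library. Each library listed some peaks on the Y chromosome, 14 in the KO at day 5, 16 in the KO at day 0, 20 in WT at day 5 and 16 in WT at day 0. Peaks on the X chromosome, as a percent of autosomal peaks, were higher in the KO, at 3.01% at day 5 and 2.57% at day 0. In WT they were 2.22% at day 5 and 2.20% at day 0, and the reason was not tested. All 8 embryonic stem cell markers had a peak at their start in the KO at both days and in WT at day 0, and 7 did in WT at day 5, where the pluripotency factor Pou5f1 had none. All 8 neural progenitor markers had a start peak in every library, day 0 included. Start peaks of the 8 fibroblast markers numbered 8 in the KO at day 5, 7 in the KO at day 0, 8 in WT at day 5 and 6 in WT at day 0.

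Every adhesion switch gene had a peak within 1 kb of its start in every library, whether the gene belonged to the epithelial or to the neural and mesenchymal side. Over all protein-coding genes the share with a start peak was 74.5% in the KO at day 5, 73.9% in the KO at day 0, 72.6% in WT at day 5 and 72.9% in WT at day 0. For Epcam, Vim, Zeb2 and Snai1 the start is the outermost RefSeq start. For Cdh1, Cdh2, Ncam1, Zeb1 and Snai2 it is the gene end with more covered bases, which makes a peak there more likely by construction.

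The covered share of each window placed the genes in the same 3 levels in every library. Cdh1 and Snai1 were the most open loci, with means over the 4 libraries of 22.5% and 21.0% of the window, followed by Epcam with 18.0%. Zeb2 (12.0%), Vim (11.4%), Ncam1 (9.61%) and Cdh2 (8.06%) formed a middle level. The median gene had 12.4% in the KO at day 5, 12.8% in the KO at day 0, 9.75% in WT at day 5 and 11.5% in WT at day 0. Zeb1 (5.35%) and Snai2 (1.98%) were the least covered. The order inside the middle level changed between libraries, and the upper and middle levels came closest in WT at day 5, where Epcam had 14.4% and Zeb2 13.1%. The middle and lower levels came closer still in the KO at day 5, where Cdh2 had 7.40% and Zeb1 6.68%. With 1 library a group there is no spread by which to separate neighbours in this order. The long genes Cdh2, Ncam1, Zeb1 and Zeb2 have windows mostly of gene body. The windows of Cdh1, Epcam, Vim, Snai1 and Snai2 are mostly flanks.

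**Figure D1:**
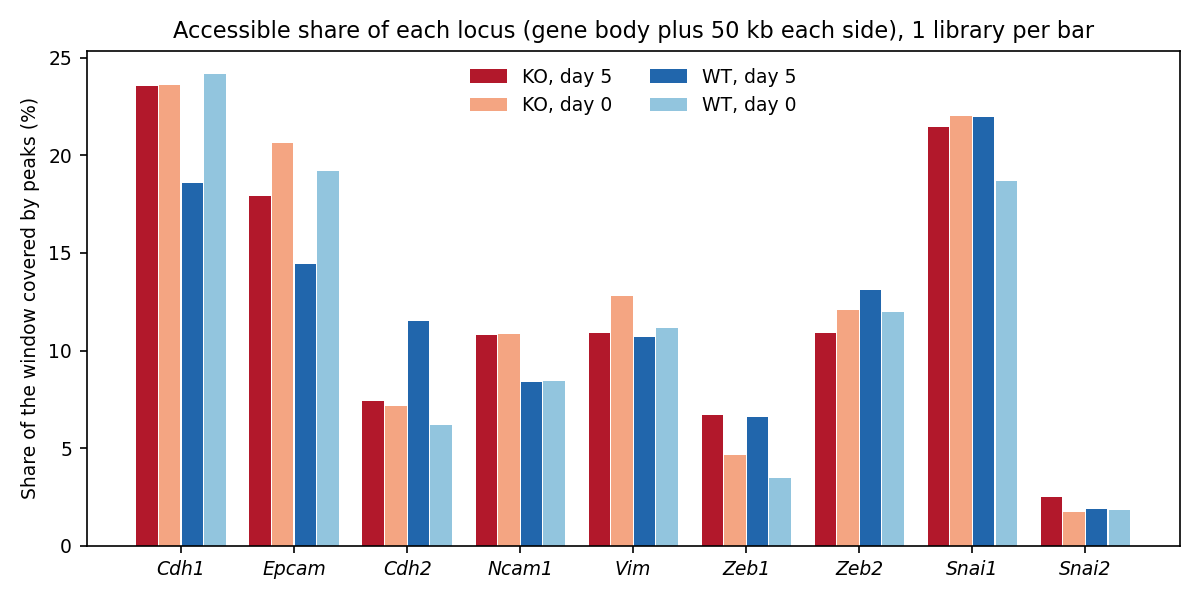
Share of each locus (gene body plus 50 kb on each side) covered by peaks, in percent, with 1 bar per library in the order KO day 5, KO day 0, WT day 5 and WT day 0; there are no error bars because each group is 1 library. Cdh2 stands at 11.5% in WT at day 5 and between 6.19 and 7.40% in the other libraries, while Zeb1 is near 6.6% at day 5 in both genotypes and lower at day 0.

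Between libraries, covered bp were compared as a log2 ratio after 500 bp were added to each, minus the median over all genes of the same comparison. That median was 0.31 for KO over WT at day 5, 0.11 for KO over WT at day 0, −0.03 for day 5 over day 0 in the KO and −0.23 for day 5 over day 0 in WT. All ratios below are relative to it unless called uncentred, and a gene is said to have risen or fallen when it passed 1.5-fold. The comparisons share libraries, the WT day 5 library standing in 2 of them, so their values are not independent.

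Neither epithelial adhesion gene, Cdh1 or Epcam, passed 1.5-fold in any comparison, and both had their fewest covered bp in WT at day 5. Cdh1 encodes E-cadherin and lies on chromosome 8 (mm10, 106603350 to 106670247). Its window had 39295 covered bp in the KO at day 5, 39422 bp in the KO at day 0, 30979 bp in WT at day 5 and 40313 bp in WT at day 0. The WT day 5 library was lowest and the other 3 lay within a narrow range. The ratio was 0.03 for KO over WT at day 5, −0.14 for KO over WT at day 0, 0.03 for day 5 over day 0 in the KO and −0.15 for day 5 over day 0 in WT. Inside the gene body the covered bp were 18398 in the KO at day 5, 17610 in the KO at day 0, 12240 in WT at day 5 and 17400 in WT at day 0. With the gene body alone the ratio for KO over WT at day 5 was 0.45, and that for day 5 over day 0 in WT was −0.44, both still inside 1.5-fold. Part of the covered bp of the window lay in the neighbouring genes Cdh3, another classical cadherin, and Tango6, namely 24.4% in the KO at day 5, 24.4% in the KO at day 0, 24.2% in WT at day 5 and 23.0% in WT at day 0.

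Within 1 kb of the start of Cdh1, 1188 bp were covered in the KO at day 5, 825 bp in the KO at day 0, 835 bp in WT at day 5 and 1208 bp in WT at day 0. The higher values in the KO at day 5 and in WT at day 0 came from a further peak beside the one over the start. Peaks of the 4 libraries that overlapped were joined into regions, and Cdh1 had 62 of these, 29 of them in all 4 libraries. Of the 45 Cdh1 regions of the KO at day 0, 10 were no longer listed at day 5, and of the 50 of WT at day 0, 18 were not. Of those 18, 10 were listed in the KO at day 5. The share of Cdh1 regions still listed was thus 77.8% in the KO and 64.0% in WT, near the 75.1% in the KO and 64.8% in WT over all gene windows. New regions at day 5 numbered 10 of 45 in the KO and 4 of 36 in WT.

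Epcam, an epithelial adhesion molecule present on pluripotent cells, lies on chromosome 17 (87635979 to 87651127). Its window had 20614 bp in the KO at day 5, 23771 bp in the KO at day 0, 16631 bp in WT at day 5 and 22110 bp in WT at day 0. Both day 5 libraries were lower than both day 0 libraries. Relative to the median gene the ratio was −0.17 for day 5 over day 0 in the KO and −0.17 in WT, and it was −0.01 for KO over WT at day 5 and −0.01 at day 0. The peaks over its E-boxes, shown above, were listed in all 4 libraries, and 20 of its 29 regions (69.0%) were shared by all 4. No region of Epcam was new at day 5 in the KO (0 of 25, 95% exact interval 0 to 13.7%) and 1 of 21 was in WT. Of the 29 regions of the KO at day 0, 4 were gone at day 5. Of the 27 regions of WT at day 0, 7 were gone at day 5, and 4 of those 7 were listed in the KO at day 5.

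**Figure D2:**
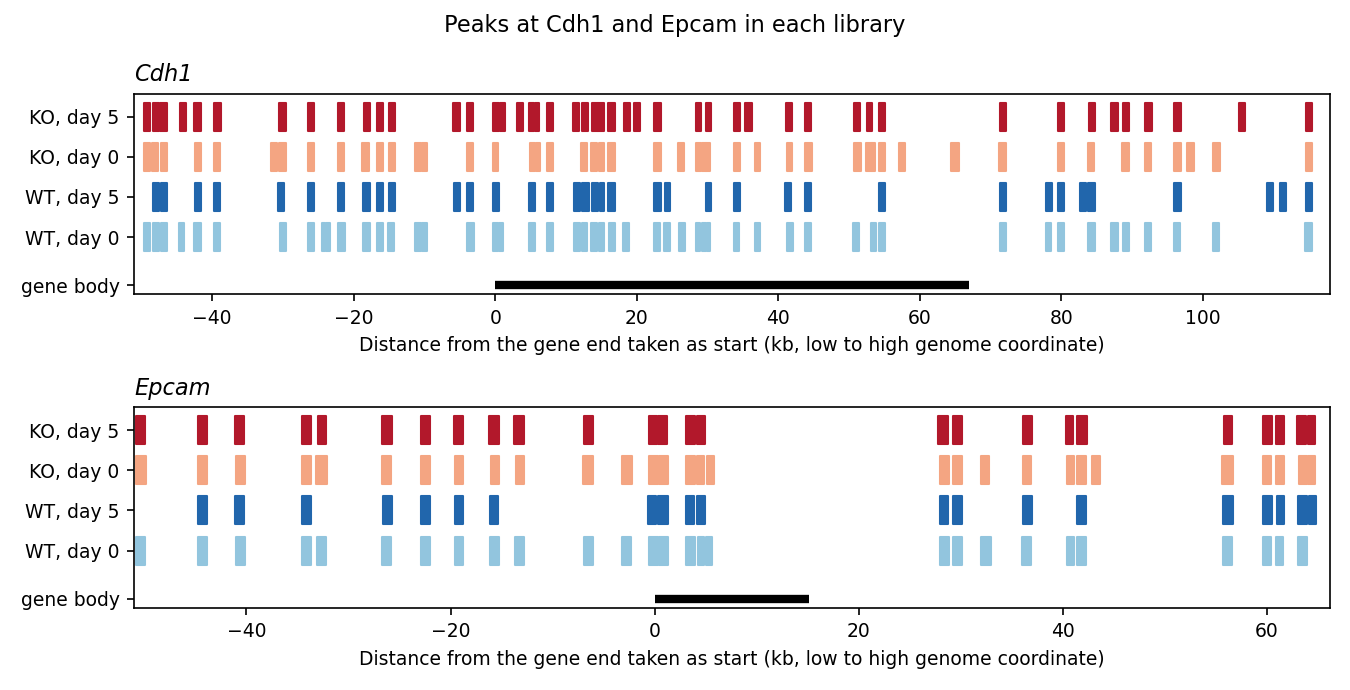
Peaks of each library along the Cdh1 and Epcam windows, in kb from the gene start, with KO day 5 on top, then KO day 0, WT day 5 and WT day 0, and the gene body as a black bar. Most peaks stand in columns shared by the libraries; WT at day 5 has 36 peaks at Cdh1, against 46 to 50 in the others, and 20 at Epcam, against 25 to 29.

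Cdh2 passed 1.5-fold in 2 comparisons. At day 5 it was lower in the KO than in WT, at 0.525 of the WT value relative to the median gene. Day 5 over day 0 was 1.05-fold in the KO, and it rose 2.15-fold in WT. It encodes N-cadherin, the main cadherin of the neural tube, and spans 220.4 kb of chromosome 18 (16588877 to 16809246), with no other protein-coding gene in its window. The window had 23715 covered bp in the KO at day 5, 22982 bp in the KO at day 0, 36818 bp in WT at day 5 and 19836 bp in WT at day 0. WT at day 5 was far above the other 3, which lay close together. The ratio was −0.93 for KO over WT at day 5 (percentile 1.67 of all genes), 0.10 for KO over WT at day 0 (percentile 65.9), 0.07 for day 5 over day 0 in the KO (percentile 62.0) and 1.10 in WT (percentile 96.5). Peaks numbered 26 in the KO at day 5, 26 in the KO at day 0, 43 in WT at day 5 and 22 in WT at day 0. The uncentred log2 ratio of peak numbers was −0.73 for KO over WT at day 5 (95% exact interval −1.49 to 0.01) and 0.97 for WT at day 5 over day 0 (0.19 to 1.78), intervals that cover counting error only.

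The additional WT day 5 peaks of Cdh2 lay along the whole gene and beyond its far end. Of 53 joined regions, 19 were listed in WT at day 5 alone (35.8%, 95% exact interval 23.1 to 50.2), against 7.81% of the regions in the windows of all genes. Of these 19, 12 lay in the gene body, 6 in the 50 kb past the end opposite the start and 1 in the flank on the start side. New regions at day 5 made up 7 of 26 in the KO (26.9%, 11.6 to 47.8) and 27 of 43 in WT (62.8%, 46.7 to 77.0). Of the 27 that were new in WT, 5 were listed in the KO at day 5 and 4 in the KO at day 0. Of the 7 that were new in the KO, 6 were listed in WT at day 5. The intervals treat neighbouring regions of 1 gene in 1 library as independent, which they are not. The 7.81% covers genes of all lengths, and no such share for long genes alone is given. At the start of Cdh2 the libraries were alike, with 1604 bp covered within 1 kb in the KO at day 5, 1514 bp in the KO at day 0, 1518 bp in WT at day 5 and 1501 bp in WT at day 0.

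Both calls on Cdh2 come from comparisons that use the WT day 5 library, so by design they rest on that 1 library. Without it, Cdh2 in the KO at day 5 stood at 0.17 relative to WT at day 0, libraries that differ in genotype and day. Fibroblast and endoderm markers passed 1.5-fold in some comparisons with the WT day 5 library and in some without it. For KO over WT at day 0, all 8 fibroblast markers lay above the median gene (list median 0.29), with Postn (0.72) past 1.5-fold. In the same comparison the endoderm marker Sox7 was higher (0.79) and Sox17 lower (−0.63). Over time in the KO, 0 of 8 fibroblast markers passed 1.5-fold in either direction, with a list median of −0.04. Of the fibroblast markers, 4 of 8 (Col3a1, Postn, Dcn and Lum) were higher past 1.5-fold in WT at day 5 than at day 0, with a list median of 0.73, and lower in the KO than in WT at day 5, with a list median of −0.47. Summed over the 8 fibroblast windows, 105.5 kb were covered in the KO at day 5, 110.9 kb in the KO at day 0, 103.5 kb in WT at day 5 and 87.8 kb in WT at day 0. Of the endoderm markers, 0 of 6 passed 1.5-fold for KO over WT at day 5 (median −0.02), 2 of 6 were higher at day 5 than at day 0 in the KO (Foxa2 and Sox17, median 0.32) and 3 of 6 were in WT (Dab2, Sox7 and Foxa2, median 0.53). Their start peaks numbered 5 of 6 in the KO at day 5, 4 in the KO at day 0, 4 in WT at day 5 and 3 in WT at day 0, and their windows summed to 102.4 kb in the KO at day 5, 83.9 kb in the KO at day 0, 77.8 kb in WT at day 5 and 66.8 kb in WT at day 0. The neural progenitor markers had 0 of 8 past 1.5-fold in any comparison, with medians of −0.29 for KO over WT at day 5 and 0.27 for WT over time. Of the 8 embryonic stem cell markers only Dppa4 passed 1.5-fold in any comparison, higher for KO over WT at day 5 (0.88). Their medians were 0.04 for KO over WT at day 5, −0.02 at day 0, −0.06 over time in the KO and −0.23 over time in WT. Over all genes, 7.91% were higher and 4.28% lower past 1.5-fold for KO over WT at day 5, and 4.61% and 3.11% at day 0. For day 5 over day 0, 7.71% were higher and 2.45% lower in the KO, and 10.2% and 6.22% in WT. The part of other cells, of the Y-linked peaks and of depth in the Cdh2 difference was not tested.

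Long genes as a class were also more often higher in WT at day 5. Among genes with a body of at least 100 kb, a limit chosen after the values were seen, 566 of 2422 (23.4%) passed 1.5-fold upwards at day 5 over day 0 in WT, against 8.48% of shorter genes, and 214 of 2423 (8.83%) were lower in the KO than in WT at day 5, against 3.67%. Among the 853 long genes with 5 to 10% of the window covered, as Cdh2 has on average, 25.1% were higher over time in WT and 6.57% lower in the KO than in WT at day 5.

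Ncam1, the neural cell adhesion molecule of the immunoglobulin family, lies on chromosome 9 (49502129 to 49799393) and is the longest of the genes. Its window had 42890 bp in the KO at day 5, 43052 bp in the KO at day 0, 33351 bp in WT at day 5 and 33476 bp in WT at day 0. The KO libraries were higher than the WT libraries, and within each genotype the days were nearly equal. Relative to the median gene the ratio was 0.05 for KO over WT at day 5, 0.25 for KO over WT at day 0, 0.02 for day 5 over day 0 in the KO and 0.22 in WT, where the uncentred ratio was −0.01. Of its 70 regions, 26 were in all 4 libraries, 7 in the KO at day 5 alone, 10 in the KO at day 0 alone and 5 in WT at day 5 alone. Its flank on the start side had 4845 bp in the KO at day 5, 4531 bp in the KO at day 0, 1807 bp in WT at day 5 and 1861 bp in WT at day 0.

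Vim encodes vimentin, the intermediate filament of mesenchymal and neural progenitor cells, on chromosome 2 (13574311 to 13582826). Its window had 11810 bp in the KO at day 5, 13890 bp in the KO at day 0, 11590 bp in WT at day 5 and 12127 bp in WT at day 0. The KO at day 0 was highest and the other 3 lay close together. The ratio was −0.28 for KO over WT at day 5 (0.03 uncentred), 0.08 for KO over WT at day 0, −0.20 for day 5 over day 0 in the KO and 0.16 in WT (−0.06 uncentred), none past 1.5-fold. The peak at its start was listed in every library.

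Among the repressors, Zeb1 had more covered bp at day 5 than at day 0 in the KO, just short of 1.5-fold, and it rose in WT. It encodes a zinc-finger and homeodomain repressor of Cdh1 and lies on chromosome 18 (5591327 to 5775468), with no other protein-coding gene in its window. Its window had 18989 bp in the KO at day 5, 13270 bp in the KO at day 0, 18746 bp in WT at day 5 and 9845 bp in WT at day 0. The day 5 libraries were nearly equal and both above the day 0 libraries. The ratio was 0.53 for day 5 over day 0 in the KO and 1.12 in WT, a 2.18-fold difference in WT. It was −0.29 for KO over WT at day 5 (0.02 uncentred) and 0.30 at day 0. Without the WT day 5 library, the KO at day 5 over WT at day 0 gave 0.83, in libraries that differ in both genotype and day.

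The day 5 peaks of Zeb1 lay in different places in the genotypes. The flank before its start had 1726 bp in the KO at day 5, 1778 bp in the KO at day 0, 6093 bp in WT at day 5 and 885 bp in WT at day 0. The gene body had 11376 bp in the KO at day 5, 8035 bp in the KO at day 0, 8157 bp in WT at day 5 and 7199 bp in WT at day 0. The flank was thus highest in WT at day 5 and the body highest in the KO at day 5. With the gene body alone the ratio over time was 0.48 in the KO and 0.22 in WT, which ends the call in WT, and KO over WT at day 5 was 0.33. Of its 33 regions, 8 were in WT at day 5 alone (24.2%, 95% exact interval 11.1 to 42.3), 5 of them in the flank before the start, and 6 in the KO at day 5 alone, 4 of them in the body. New regions at day 5 numbered 9 of 22 in the KO, 2 of which were listed in WT at day 5, and 14 of 21 in WT, 6 of which were listed in the KO at day 5.

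**Figure D3:**
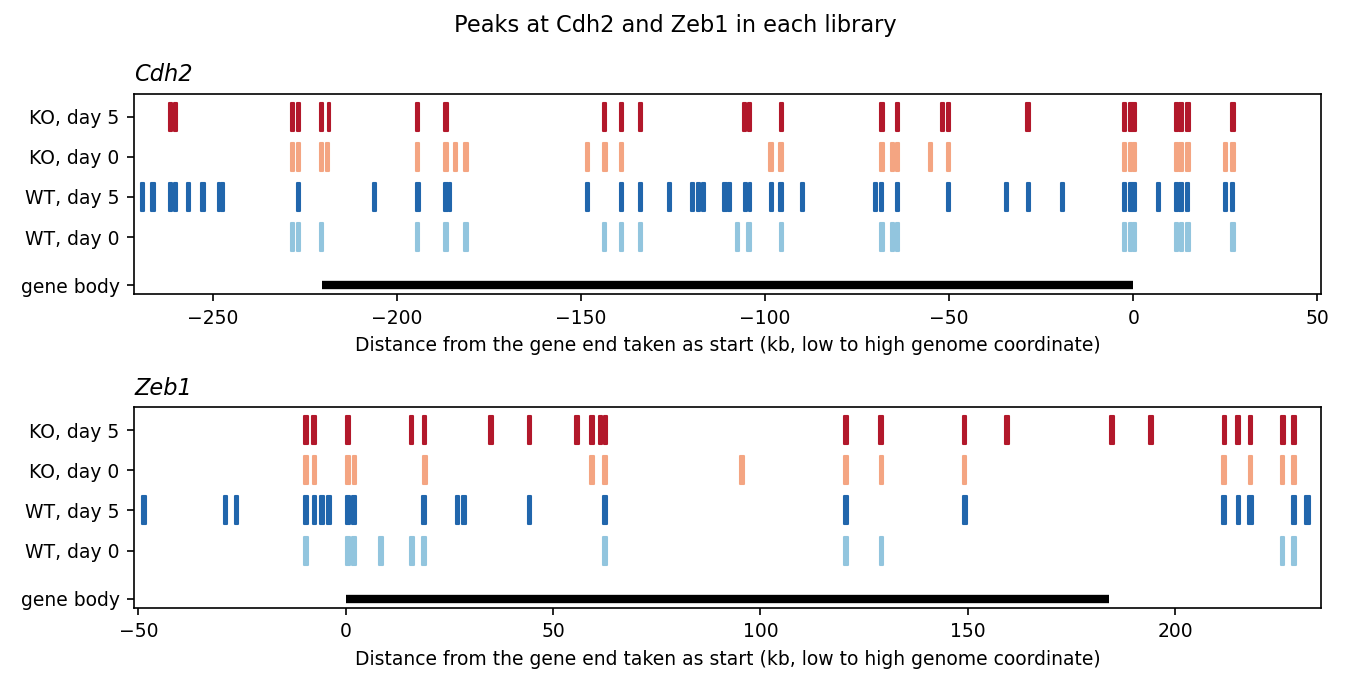
Peaks of each library along the Cdh2 and Zeb1 windows, in kb from the gene end taken as the start, with KO day 5 on top, then KO day 0, WT day 5 and WT day 0, and the gene body as a black bar. At Cdh2 the WT day 5 row holds 43 peaks, against 22 to 26 in the other rows, spread over the gene body and its far flank; at Zeb1 the left flank holds 5 regions seen in WT at day 5 alone.

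Zeb2, the second Zeb repressor, which also acts in neural crest and cortex, lies on the minus strand of chromosome 2 (44983512 to 45117442). Its window had 25463 bp in the KO at day 5, 28303 bp in the KO at day 0, 30707 bp in WT at day 5 and 27964 bp in WT at day 0. The KO at day 5 was lowest and WT at day 5 highest. The ratio for KO over WT at day 5 was −0.57 (percentile 4.48; −0.27 uncentred), just inside 1.5-fold, and it was −0.09 at day 0, while day 5 over day 0 gave −0.12 in the KO and 0.36 in WT. With a pseudocount of 100 bp the ratio for KO over WT at day 5 was −0.59, just past 1.5-fold, and with a pseudocount of 2000 bp it was −0.53. Within 1 kb of the innermost annotated start of Zeb2 (45110277), the KO had 0 bp covered at day 5 and 781 bp at day 0. WT had 751 bp at day 5 and 406 bp at day 0. The region over that start itself (45109752 to 45110502) was listed in the KO at day 0 and WT at day 5 only. The 406 bp of WT at day 0 lay in a separate region beside it (45110872 to 45111859), so WT at day 0 also had no peak over this start. Its outermost start (45117442) had 774 bp in the KO at day 5, 767 bp in the KO at day 0, 820 bp in WT at day 5 and 699 bp in WT at day 0. Of the 47 regions of Zeb2, 7 were in WT at day 5 alone and 0 in the KO at day 5 alone (0%, 95% exact interval 0 to 7.55%, against 9.39% over all windows).

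Snai1, the repressor of Cdh1 at gastrulation, lies on chromosome 2 (167538195 to 167542814). Its window had 22425 bp in the KO at day 5, 23041 bp in the KO at day 0, 22979 bp in WT at day 5 and 19554 bp in WT at day 0. WT at day 0 was lowest and the other 3 lay close together. The ratio was −0.34 for KO over WT at day 5 (−0.03 uncentred), 0.12 for KO over WT at day 0, −0.01 for day 5 over day 0 in the KO and 0.45 in WT. The value over time in WT was 0.83, past 1.5-fold, with flanks of 10 kb and 0.05 with the gene body only, so it depends on the window. The neighbours Rnf114 and Spata2 held 26.4% of the covered bp in the KO at day 5, 22.5% in the KO at day 0, 17.6% in WT at day 5 and 22.2% in WT at day 0. The peak over its E-box was listed in all 4 libraries, with 909 to 917 bp covered within 1 kb of the start.

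Snai2, the Snail relative of the neural crest, lies on chromosome 16 (14705852 to 14709395) in the emptiest of the windows. It had 2585 bp in the KO at day 5, 1773 bp in the KO at day 0, 1943 bp in WT at day 5 and 1882 bp in WT at day 0. The KO at day 5 was highest, by 1 peak: it had 3 peaks and each of the others had 2. The ratio was 0.47 for day 5 over day 0 in the KO, 0.26 in WT, 0.03 for KO over WT at day 5 and −0.18 for KO over WT at day 0.

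Counted over the 9 genes, 0 were higher and 1, Cdh2, was lower past 1.5-fold for KO over WT at day 5, where 7.91% of all genes were higher and 4.28% lower. For KO over WT at day 0, 0 were higher and 0 lower, where 4.61% of all genes were higher and 3.11% lower. For day 5 over day 0 in the KO, 0 were higher and 0 lower, where 7.71% of all genes were higher and 2.45% lower. For day 5 over day 0 in WT, 2 were higher, Cdh2 and Zeb1, and 0 lower, where 10.2% of all genes were higher and 6.22% lower. The medians of the 9 genes were −0.28 for KO over WT at day 5, 0.08 for KO over WT at day 0, 0.02 for day 5 over day 0 in the KO and 0.26 in WT. For day 5 over day 0, 5 of the 9 lay above the median gene in the KO and 7 of the 9 in WT. The 2 below in WT were the epithelial genes Cdh1 (−0.15) and Epcam (−0.17), both between the quartiles of all genes (−0.22 and 0.24). Uncentred, Ncam1 (−0.01) and Vim (−0.06) were below 0 in WT as well. The counts past 1.5-fold rest on 1 or 2 genes, and nothing about the group as a whole is read from any count here.

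**Figure D4:**
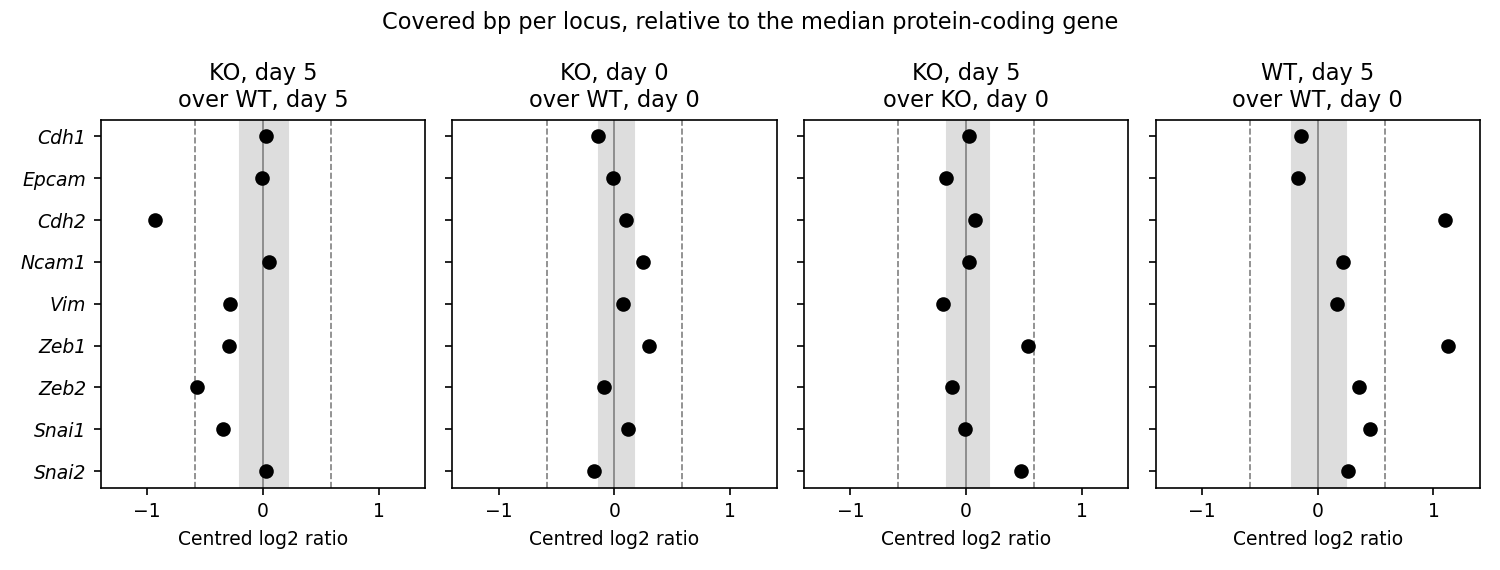
Log2 ratio of covered bp for the 9 genes in each comparison, minus the median of all protein-coding genes; the grey band spans the middle of all genes from the lower to the upper quartile and dashed lines mark 1.5-fold. Cdh2 lies at −0.93 for KO over WT at day 5 and, with Zeb1, above 1.1 for day 5 over day 0 in WT; the other points lie between the dashed lines.

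In the 354 joined regions of the 9 windows, 142 (40.1%, 95% exact interval 35.0 to 45.4) were listed in all 4 libraries, against 36.0% over the windows of all genes. Of the regions within 5 kb of a start 20 of 29 (69.0%, 49.2 to 84.7) were in all 4 libraries, and of those farther away 122 of 325 (37.5%, 32.3 to 43.1), and the same split was 56.1% and 38.7% over all genes, where a region was counted once for each gene window it lies in, a different base from the 36.0%. For 5 of the 9 genes the start is the gene end with more covered bases, so part of this split is set by that choice. WT at day 5 alone listed 47 regions (13.3%, 9.92 to 17.3, against 7.81% over all windows), of which Cdh2 held 19, Zeb1 8 and Zeb2 7. The KO at day 5 alone listed 24 (6.78%, 4.39 to 9.92, against 9.39%), the KO at day 0 alone 23 (6.50%, against 7.92%) and WT at day 0 alone 8 (2.26%, against 4.95%). Regions seen at day 5 in both genotypes and at day 0 in neither numbered 13 (3.67%, against 4.48%), of which Cdh2 and Ncam1 held 4 each. Regions seen at day 0 in both genotypes and at day 5 in neither numbered 19 (5.37%, against 6.01%), of which Cdh1 held 6 and Epcam 3.

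Over the group, 187 of 243 day 0 regions were still listed at day 5 in the KO (77.0%, 71.1 to 82.1, against 75.1% over all windows) and 158 of 220 in WT (71.8%, 65.4 to 77.7, against 64.8%). New regions made up 52 of 239 at day 5 in the KO (21.8%, 16.7 to 27.5, against 25.2%) and 80 of 238 in WT (33.6%, 27.6 to 40.0, against 29.3%). Cdh2 supplied 7 of the 52 new regions in the KO and 27 of the 80 in WT. The intervals treat regions as independent, which neighbouring regions of 1 gene in 1 library are not.

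**Figure D5:**
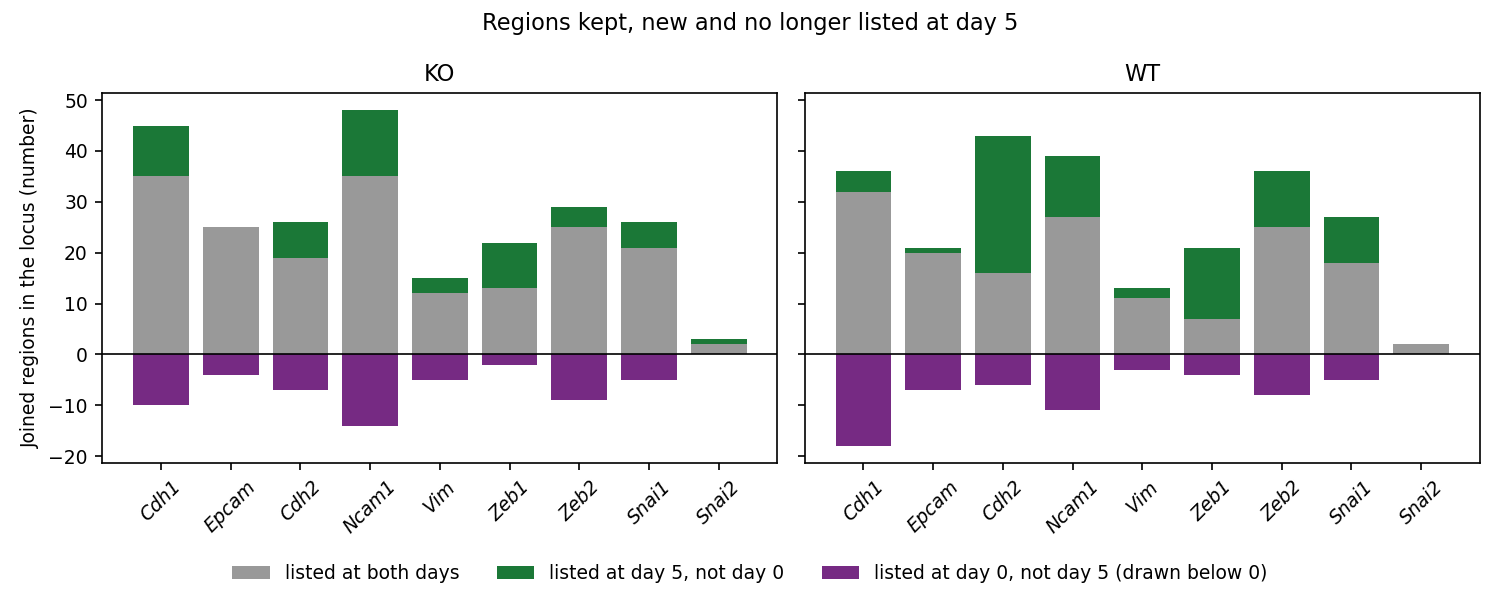
Joined regions of each gene listed at both days (grey), at day 5 and not day 0 (green) and at day 0 and not day 5 (purple, drawn below 0), with the KO on the left and WT on the right. The green part of Cdh2 is 7 regions in the KO and 27 in WT; the purple part of Cdh1, 10 in the KO and 18 in WT, leaves 77.8% of its day 0 regions in the KO and 64.0% in WT, near the 75.1% and 64.8% over all gene windows.

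The miR-200 genes, whose seeds are given above, covered less in WT at day 5 at the chromosome 4 cluster. The window around Mir200a had 16334 bp in the KO at day 5, 17173 bp in the KO at day 0, 9573 bp in WT at day 5 and 14169 bp in WT at day 0. Within 1 kb of Mir200a, 880 bp were covered in the KO at day 5, 981 bp in the KO at day 0, 0 bp in WT at day 5 and 917 bp in WT at day 0, so WT at day 5 was the library without a peak there. The window ratio of Mir200a was 0.43 for KO over WT at day 5 and −0.32 for day 5 over day 0 in WT, both inside 1.5-fold. It was 0.16 for KO over WT at day 0 and −0.04 for day 5 over day 0 in the KO. The window of Mir200c had 18684 bp in the KO at day 5, 20161 bp in the KO at day 0, 16814 bp in WT at day 5 and 15722 bp in WT at day 0, a ratio of −0.16 for KO over WT at day 5 and 0.32 for day 5 over day 0 in WT. The clusters thus lay on opposite sides of the median gene, Mir200a below and Mir200c above it over time in WT.

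Of 17 other neural adhesion genes, 9 were lower in the KO than in WT at day 5 (list median −0.61) and 9 were higher at day 5 than at day 0 in WT (median 0.74), with 0 in the other direction in either comparison. Over all genes 4.28% were lower in the KO than in WT at day 5 and 10.2% higher over time in WT, and over genes of at least 100 kb the shares were 8.83% and 23.4%. Both counts use the WT day 5 library, and 14 of the 17 genes are at least 100 kb long. The list was chosen with earlier results of these data known, so the counts are not an independent check. Cntn1, a contactin of axons, had 13120 bp in the KO and 26659 bp in WT at day 5, a ratio of −1.30. Chl1, a relative of L1cam, had 23041 bp at day 5 and 8721 bp at day 0 in WT, a ratio of 1.58. Cdh13, a cadherin without a cytoplasmic tail, stood at 0.51 for KO over WT at day 5, and L1cam at −0.44 for day 5 over day 0 in WT, the far ends of the list. For day 5 over day 0 in the KO, 2 of 17 were higher, Cdh8 (0.70) and Chl1 (0.66), and 0 lower, with a median of 0.11, and for KO over WT at day 0 the count was 0 in both directions with a median of −0.04. Cdh10 was lowest over time in the KO (−0.41), and Astn1 (0.33) and Cdh8 (−0.37) were the far ends for KO over WT at day 0.

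Of 30 epithelial junction genes and their regulators, 3 were higher and 1 lower in the KO than in WT at day 5, with a median of −0.05. Over all genes 7.91% were higher and 4.28% lower, so these counts are near the background. St14, the membrane protease matriptase, had 23715 bp in the KO and 11298 bp in WT at day 5, a ratio of 0.73, and the desmosomal cadherin Dsc2 (0.60) and the epithelial transcription factor Elf3 (0.67) were also higher. The epithelial transcription factor Grhl1 was lower (−0.64). For KO over WT at day 0 and over time in the KO none of the 30 passed 1.5-fold in either direction, and over time in WT 0 were higher and 2 lower, St14 (−0.79) and the tight junction protein F11r (−0.61), against 10.2% higher and 6.22% lower over all genes. The far ends of the list inside 1.5-fold were Dsc2 (0.38) and Ocln (−0.37) for KO over WT at day 0, Elf3 (0.44) and Jup (−0.42) over time in the KO, and Krt19 (0.45) at the upper end over time in WT.

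Of the 5 catenins, Ctnna2, the neural alpha-catenin, had 35222 bp in the KO and 51081 bp in WT at day 5, a ratio of −0.84, and stood at 1.12 for day 5 over day 0 in WT. Ctnnd2, a delta-catenin of neurons, was higher in the KO than in WT at day 0 (0.68) and higher in WT over time (0.81). The widely expressed Ctnna1, Ctnnb1 and Ctnnd1 did not pass 1.5-fold in any comparison. Ctnna2 (1098 kb) and Ctnnd2 (857 kb) are far longer than Ctnna1 (136 kb), Ctnnd1 (71.9 kb) and Ctnnb1 (27.1 kb). Of genes of at least 100 kb, 8.83% were lower in the KO than in WT at day 5, against 4.28% over all genes. Over time in WT 23.4% of them were higher, against 10.2%, and for KO over WT at day 0 4.79%, against 4.61%. The part of gene length in the catenin values was not tested. Ctnnb1 was the highest catenin for KO over WT at day 5 (0.14) and over time in the KO (0.13), where Ctnnd2 was lowest (−0.21). Ctnna1 was lowest for KO over WT at day 0 (−0.13) and over time in WT (−0.17). Of 20 mesenchymal transition genes, 0 were higher and 2 lower in the KO than in WT at day 5, the transcription factors Prrx1 (−1.01) and Twist1 (−0.93), with a median of −0.13, against 7.91% higher and 4.28% lower over all genes. Over time in the KO 0 were higher and 1 lower, Prrx1 (−0.88), against 7.71% higher and 2.45% lower over all genes, and over time in WT 4 were higher, Tgfbr1 (0.77), Smad2 (0.70), Foxc2 (0.63) and Twist1 (0.59), and 0 lower, against 10.2% higher and 6.22% lower. For KO over WT at day 0 none of the 20 passed 1.5-fold. The far ends inside 1.5-fold were Tgfb2 (0.21) for KO over WT at day 5, Smad2 (0.42) and Twist1 (−0.30) for KO over WT at day 0, Tgfbr1 (0.57) over time in the KO and Snai3 (−0.21) over time in WT.

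The genes whose 4 library profile was most like that of Cdh1, among 17112 genes on other chromosomes with at least 5000 bp on average, were Shcbp1l, Fancg and Gm13090, with root mean square differences of 0.00553, 0.00581 and 0.00591 on the log2 scale, against a median of 0.154. For Cdh2 they were Vgll2, Macrod2 and Tmem71, with 0.0237, 0.0239 and 0.0454 among 17569 genes, against a median of 0.463. Macrod2, for example, had 59826 bp in the KO at day 5, 57194 bp in the KO at day 0, 89700 bp in WT at day 5 and 47991 bp in WT at day 0. The likeness rests on 4 libraries and describes these profiles only.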

How the data were processed

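The authors deposited 1 peak list per library, which gives peak positions only (chromosome, start, end), with neither score nor count. Per the file headers, the caller was cellranger-arc 2.0.0, run per library with its mm10 reference, and the lists do not separate nuclei. The submitters' processing notes also name Scanpy 1.7.2, whose role is not given in the sources used here. Doublets are not mentioned there, and no doublet caller was run. Read depth is unknown, and the number of peaks stands in for it.

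Covered bp, peak numbers and joined regions (overlap of at least 1 bp) were computed with Python 3.11.15, NumPy 2.4.6 and SciPy 1.17.1 in windows of the gene body plus 50 kb. Gene positions are those of GRCm38.p6, from a table without strand or exons. Starts came from RefSeq promoters for 17492 genes, and otherwise from the gene end with more covered bases (2576 low ends, 1819 high ends). Ratios used a pseudocount of 500 bp and were centred on the median over genes with any covered base. With 1 library per group no p-value was computed. Percent shares carry 95% exact (Clopper-Pearson) intervals. The steps were tested on simulated data.

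All 9 genes were named, as were the 3 genes most like Cdh1 and Cdh2. The highest and lowest members (mean covered length of 2000 bp or more) were named for the neural adhesion, epithelial, catenin and mesenchymal lists. Those of the cell type marker lists were not named as such. Further genes of all these lists past 1.5-fold, the stem cell marker without a start peak and the Y-linked genes were named after seeing their values. The members and lists were chosen with earlier results of these data known. Alternatives were other pseudocounts, windows, peak widths and numbers, no centring, other start distances and a stricter overlap. The RNA side of the assay was not analysed here.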

Additional observations from a re-analysis of the deposited data

Results flagged for a closer look

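For 4 of the 9 genes the ratio of day 5 over day 0 had opposite signs in the KO and in WT, with 1 library per group, and the difference was not tested. Cdh1 stood at 0.03 in the KO and −0.15 in WT, a difference (KO minus WT) of 0.17 on the log2 scale. Vim stood at −0.20 in the KO and 0.16 in WT, a difference of −0.36. Zeb2 stood at −0.12 in the KO and 0.36 in WT, a difference of −0.48. Snai1 stood at −0.01 in the KO and 0.45 in WT, a difference of −0.46. Without centring, Cdh1 was at −0.0046 in the KO and −0.37 in WT, and Vim at −0.23 in the KO and −0.06 in WT, so their signs no longer differed, while those of Zeb2 and Snai1 did. With flanks of 10 kb the KO value of Snai1 was 0.06, so its signs no longer differed either. Of 20506 genes, 7860 (38.3%) also had opposite signs in the genotypes. Differences at least as far from 0 were found in 62.4% of genes for Cdh1, 33.5% for Vim, 22.7% for Zeb2 and 23.9% for Snai1.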

How the results depend on the processing

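The call on Cdh2 for KO over WT at day 5 held under all 10 alternatives that kept both libraries, from −1.01 with peak numbers to −0.62 without centring, as did that for day 5 over day 0 in WT, from 0.87 to 1.19. The number of the 9 genes past 1.5-fold for KO over WT at day 5 was 1, and it was 2, both lower, with a pseudocount of 100 bp, with flanks of 10 kb or 100 kb and with the number of peaks, Zeb2 being the other gene. For day 5 over day 0 in WT it was 2, 1 with the gene body only, where Zeb1 was at 0.22, and 3 with flanks of 10 kb, where Snai1 was at 0.83. With the widest 189571 peaks of each library, regions in the KO at both days and not in WT numbered 4 instead of 7, and those in WT at both days and not in the KO 13 instead of 4; the cause was not tested. Chosen after seeing the data, the comparison of the KO at day 5 with WT at day 0 changes both genotype and day. It had 1 gene past 1.5-fold, Zeb1, higher at 0.83. With a peak over the start base itself, 8 of 9 genes had one in each library, Zeb1 being the exception. The peak lists give no read depth, so a site missing from a list is not shown to be closed. No paired analysis was possible because each group is 1 library and no test was made.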
